A study of Mus musculus with 18 samples.

Results

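The neurotransmitter receptor subunit genes of the mouse are described here in embryonic stem (ES) cells and their derivatives. They were chosen by symbol alone, and no measured value entered the choice. The symbols Gria, Grid, Grik and Grin, Gabr, Glr, Chrn and Htr, each with its subunit letter or number, matched 72 of 54567 symbols in both count tables together. Of these, 18 encode ionotropic glutamate receptor subunits, 19 GABA-A receptor subunits, 5 glycine receptor subunits, 16 nicotinic acetylcholine receptor subunits and 14 serotonin receptors.

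RNA was sequenced from Msx1-tdTomato mESCs, a mouse ES line whose red fluorescent reporter at Msx1 marks cells that express this homeobox gene of craniofacial mesenchyme. Lines with doxycycline-inducible Dlx2, another homeobox gene, or with inducible GFP were grown as embryoid bodies (EBs) from hanging drops. The 7 groups with columns, of 2 libraries each, begin with day-2 EBs of the Dlx2 line and day-2 EBs of the GFP line. Both were read as the groups with 1 µg/ml doxycycline, from the line named by each column and the series design. The others are Msx1+ and Msx1- cells sorted by flow cytometry at day 8 and at day 16, and ES cells whose labels read WT and untreated. All sorted cells, Msx1- cells included, came from EBs of the inducible Dlx2 line with doxycycline, so no sorted group lacks the Dlx2 construct, and no GFP control exists at days 8 and 16. The 4 samples of the 2 uninduced EB groups were not analysed here. The labels do not say whether the libraries of a group came from separate cultures, so p-values measure only the spread between these libraries, which may be technical.

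Ionotropic glutamate, GABA-A, glycine and nicotinic receptors are ion channels built from several subunits around a central pore, and the subunits present set which transmitter opens the channel and which ions pass. AMPA, kainate and NMDA receptors carry excitatory glutamate signals, GABA-A and glycine receptors pass chloride, and nicotinic receptors pass cations at the nerve-muscle junction, in autonomic ganglia and in the brain. Serotonin receptors couple to G proteins, apart from the Htr3 channel. Most of these genes are known from neurons, and several are also active in neural crest, muscle, glia and epithelia. The experiment asked how Dlx2 steers ES cells toward ectomesenchyme, the neural crest mesenchyme of the face, so the receptor genes were not its stated subject.

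Total counts ran from 26211608 to 41552818 in the day-2 libraries and from 53797597 to 107770730 in the libraries of the later table. Levels are CPM, the counts of a gene per 1000000 counts of its library, scaled for library size and composition within each table. The tables were normalised separately, so levels are set side by side across them but not tested. Dlx2 stood at 4344 and 4720 CPM in Dlx2 EBs, against 2 counts in each GFP library. It stood at 1137 and 1270 CPM in day-8 Msx1+ cells, against 269 and 272 CPM in day-8 Msx1- cells. At day 16 it stood at 288 and 341 CPM in Msx1+ cells, against 131 and 146 CPM in Msx1- cells. The ES libraries had 219 and 222 CPM of Dlx2, which goes against their label as untreated wild type, so they are called the libraries labelled ES, or ES libraries, and comparisons with them are kept short. Msx1 followed the sort, with 73.7 and 81.6 CPM in day-16 Msx1+ cells, against 0.818 and 0.752 CPM in day-16 Msx1- cells. Of the counts from 1 to 6, between 63.0% and 69.3% were even numbers in each later library, against 45.1% to 50.2% at day 2, so counting intervals there are too narrow.

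The 6 ES cell markers were still present in every group. Their summed level was 691 and 719 CPM in Dlx2 EBs, against 2511 and 2619 CPM in GFP EBs. It was 96.9 and 104 CPM in day-16 Msx1+ cells, against 1887 and 1895 CPM in day-16 Msx1- cells. The summed level of 12 neuronal markers was 112 and 122 CPM in day-16 Msx1+ cells, against 216 and 218 CPM in day-16 Msx1- cells. At day 8 this sum was 202 and 196 CPM in Msx1+ cells, against 307 and 311 CPM in Msx1- cells, and at day 2 it was 183 and 179 CPM in Dlx2 EBs, against 297 and 289 CPM in GFP EBs. Single neuronal markers went both ways: Dcx, a microtubule-binding protein of migrating neurons, had 8.17 and 7.87 CPM in day-8 Msx1+ cells against 0.0972 and 0.037 CPM in day-8 Msx1- cells, while Stmn2, a tubulin-binding protein, had 63.8 and 57.4 CPM in day-8 Msx1+ cells against 189.8 and 186 CPM in day-8 Msx1- cells. No defining neuronal marker was at 0 in all libraries of a group. Across the 12 markers, 7 were higher and 3 lower in Dlx2 EBs, 6 higher and 3 lower in day-8 Msx1+ cells, and 6 higher and 4 lower in day-16 Msx1+ cells. Of all genes tested, 34.1% were higher and 33% lower, 30.4% and 24.3%, and 31.1% and 31%, in the same order. Median log2 changes of the markers were 0.67, 0.59 and 0.30, against 0.02, 0.06 and -0.02 over all genes tested. The sums are weighted toward abundant markers such as Stmn2, so they do not give the direction of most markers. The part of neurons in the receptor results was not tested. These are bulk samples, in which fewer cells of a type and less RNA per cell cannot be told apart.

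Receptor genes were most widely present in the Dlx2 EBs and the Msx1+ cells. A gene is called expressed in a group at a mean of at least 1 CPM, low from 0.1 to below 1 CPM and near 0 below 0.1 CPM. In Dlx2 EBs 31 of the 66 genes listed were expressed, 29 low and 6 near 0, and in GFP EBs 21 were expressed, 31 low and 14 near 0. Day-8 Msx1+ cells expressed 39 of 72, with 18 low and 15 near 0, and day-8 Msx1- cells expressed 19, with 38 low and 15 near 0. Day-16 Msx1+ cells expressed 34, with 24 low and 14 near 0, day-16 Msx1- cells expressed 19, with 38 low and 15 near 0, and the ES libraries expressed 19, with 25 low and 28 near 0. The summed level of all receptor genes was 408 and 434 CPM in day-8 Msx1+ cells, against 132 and 128 CPM in day-8 Msx1- cells. It was 468 and 453 CPM in day-16 Msx1+ cells, against 134 and 139 CPM in day-16 Msx1- cells, and 265 and 255 CPM in Dlx2 EBs, against 127 and 125 CPM in GFP EBs. The ES libraries summed to 125 and 119 CPM. In each of these 3 pairs both libraries of the first group lay above both libraries of the second, and the Msx1-, GFP and ES libraries lay close together.

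**Figure D1:**
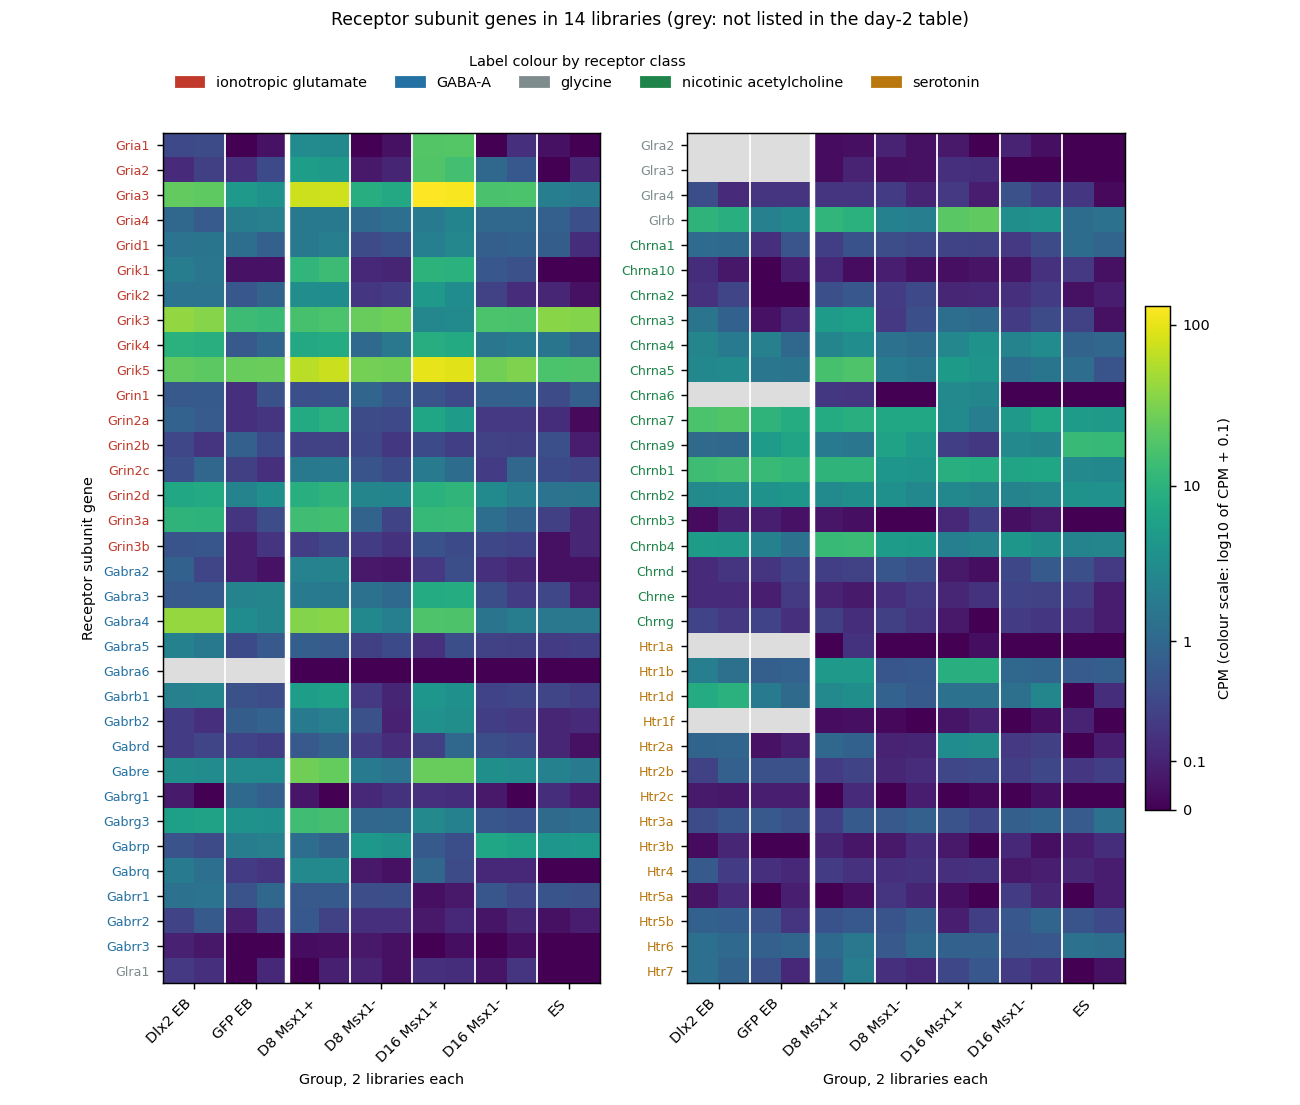
Each row is 1 of 68 receptor genes and each column 1 library, 2 per group, coloured by level in CPM on a log scale from 0 to above 100; row labels are coloured by receptor class, and the thick white line parts the separately normalised tables. The bright rows Gria3, Grik5, Grik3, Gabra4, Gabre, Glrb and Chrnb1 hold most of the signal, and the genes below 1 CPM in every group form the dark rows.

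In all, 45 of the 72 genes reached 1 CPM in at least 1 group and 27 in none, while 12 were expressed in every group. Below 0.1 CPM in every group were 6 genes: Gabra6, Gabrr3, Glra2, Htr1a, Htr1f and Htr2c. Gabra6, a subunit of cerebellar granule cells, had 0 counts in all 10 libraries of the later table, where a count of 0 allows up to 0.0262 to 0.0588 CPM by library. The day-2 table lists only symbols with at least 5 counts over its libraries, and 6 receptor genes are not listed in it: Chrna6, Gabra6, Glra2, Glra3, Htr1a and Htr1f. Per kilobase of exon, which allows genes to be compared, Grik5 stood first in both Msx1+ groups, with 18.7 CPM per kb at day 16 ahead of Gria3 with 12.6, Gabre with 5.18, Glrb with 4.68 and Chrnb1 with 3.43. Gabra4 led in Dlx2 EBs with 6.82 CPM per kb, followed by Chrnb1 with 5.79, Grik5 with 4.31 and Grik3 with 4.19. In GFP EBs the order was Grik5 with 4.82, Chrnb1 with 4.72 and Chrna7 with 2.09, and the ES libraries were led by Chrna9 with 4.06 and Grik3 with 3.89. Neighbours in these orders such as Grik5 and Grik3 in Dlx2 EBs, or Grik5 and Chrnb1 in GFP EBs, lie within the spread of their libraries.

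At day 2 the kainate, AMPA and NMDA subunit genes Grik1, Grik4, Gria3 and Grin3a, the GABA-A genes Gabra4 and Gabrb1 and the glycine gene Glrb were higher in Dlx2 EBs than in GFP EBs, and Gabra3, Gabrp and Chrna9 were lower. After the filter on low counts 49 receptor genes were tested, of which 29 were called higher (59.2%) and 8 lower (16.3%) at an adjusted p below 0.05, against 34.1% higher and 33% lower of all 18650 genes tested (67.2% called in all). Their median log2 change was 1.12, against 0.02 over all genes tested. A gene that passed the filter only through the group where it is high had to differ, so neither the count nor the median is support by itself. The same limit applies to the counts and medians of the sorted cells below. By class, 12 of 17 glutamate genes were higher and 1 lower, 6 of 14 GABA-A genes were higher and 5 lower, 6 of 9 nicotinic genes were higher and 2 lower, and 4 of 8 serotonin genes were higher and none lower, while Glrb was the 1 glycine gene tested. With scaling by library size alone, 31 receptor genes were higher and 7 lower, and 8003 and 4576 of all genes in place of 6367 and 6157. Leaving out 1 library ended the calls of 10 of these 37 genes: those of Grik2, Grin2a, Grin3b, Chrna1, Chrnb2, Htr1b and Htr7 without Dlx2 EB replicate 1; those of Gabrb2, Grik2, Grin2c, Grin3b, Chrna1, Chrnb1 and Chrnb2 without Dlx2 EB replicate 2; those of Grik2, Grin3b and Chrna1 without GFP EB replicate 1; those of Grin2c, Chrnb1, Chrnb2 and Htr7 without GFP EB replicate 2.

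At day 8 AMPA, kainate and NMDA genes again, with the GABA-A genes Gabra2, Gabrb1 and Gabrq and the nicotinic genes Chrna3 and Chrna5, were higher in Msx1+ cells. Of 61 receptor genes tested, 33 were called higher in Msx1+ cells (54.1%) and 4 lower (6.56%), against 30.4% and 24.3% of 22294 genes tested (54.7% in all). The median log2 change was 1.36, against 0.06 over all genes. It was 2.63 over the 40 receptor genes left by a filter of 1 CPM, against 0.003 over all genes left by it. A gene can pass that filter through the Msx1+ libraries alone, so the larger median is partly built in and is no support by itself. The lower genes included Grik3, Gabrp and Chrna9. By class the count was 13 higher and 1 lower of 18 glutamate genes, 9 higher and 2 lower of 16 GABA-A genes, 6 higher and 1 lower of 14 nicotinic genes, and 4 higher and none lower of 10 serotonin genes. With scaling by library size alone, 36 receptor genes were higher and 4 lower, and 8071 and 4016 of all genes in place of 6772 and 5415. The call of Gabrd, an extrasynaptic GABA-A subunit, was lost without day-8 Msx1+ replicate 2 or day-8 Msx1- replicate 2 (log2 change 1.52 to 1.63, adjusted p = 0.0659 to 0.0884), and the other 36 held without each of the 4 libraries.

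At day 16 the sorted fractions differed in both directions. Of 61 genes, 29 were called higher in Msx1+ cells (47.5%) and 11 lower (18.0%), against 31.1% and 31% of all genes tested (62.1% in all). The median log2 change was 1.09, against -0.02 over all genes. With a filter of 1 CPM, 6 genes were lower. The median was 0.51 without day-16 Msx1+ replicate 2, 0.59 with no filter on low counts and 2.08 with a filter of 1 CPM. Over all genes left by the filter of 1 CPM the median was -0.01. Here too a gene can pass it through Msx1+ cells alone, so the larger median is partly built in. Glutamate genes again counted 13 higher and 1 lower of 18, and GABA-A genes 9 higher and 3 lower of 16, whereas nicotinic genes counted 4 higher and 5 lower of 14 and serotonin genes 2 higher and 2 lower of 10. Leaving out 1 library ended 6 of the 40 calls, among them those of Grin2c, Chrnb1 and Htr5a without day-16 Msx1+ replicate 1; those of Gabra2, Chrng and Htr5a without day-16 Msx1+ replicate 2; those of Gabra2, Grin2c, Chrnb1, Chrng and Htr5a without day-16 Msx1- replicate 1; those of Gabra2 and Htr5a without day-16 Msx1- replicate 2. Of the 33 genes higher at day 8, 27 were also higher at day 16, which is 81.8% of the day-8 and 93.1% of the day-16 list. Over all genes tested, 5212 were higher at both days, which is 77.0% of the 6772 higher at day 8 and 75.1% of the 6943 higher at day 16, so the share of the day-8 list was near that of all genes. These comparisons share no libraries. All 4 genes lower at day 8 were lower at day 16. Over all genes tested, 77.8% of the 5415 lower at day 8 were also lower at day 16, so 4 genes show nothing particular to receptor genes. Chrnb4 was called in both, higher at day 8 and lower at day 16. Chrna6, at 0 counts in both Msx1- groups, has lower bounds above the medians of both days, so setting it there could not move them.

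**Figure D2:**
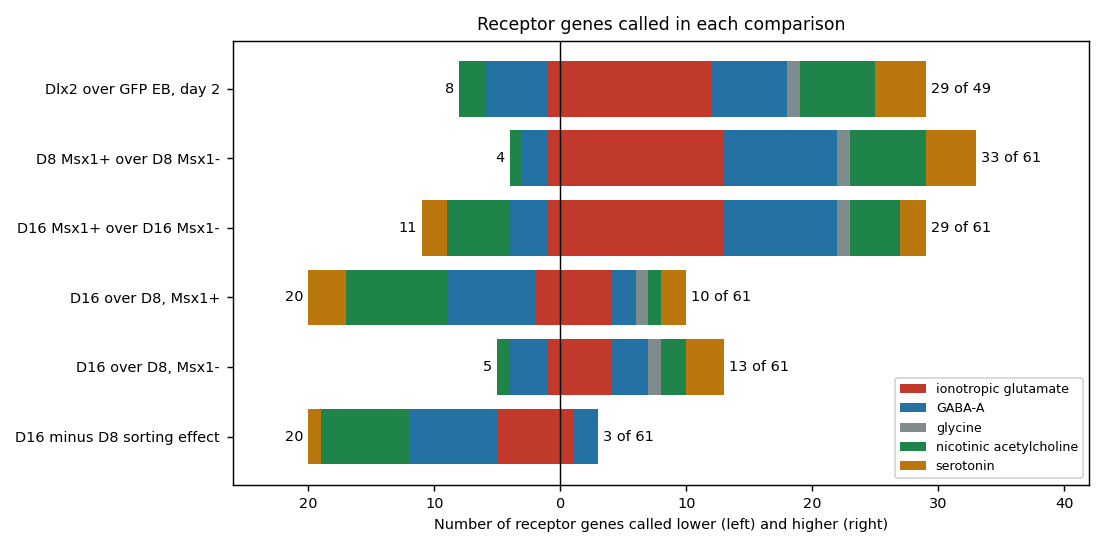
Bars count the receptor genes called lower (left of 0) and higher (right of 0) in each comparison, coloured by class, with the totals printed at the bar ends, for the 6 comparisons without ES libraries. Glutamate genes, in red, make up 12 to 13 of the higher calls in the 3 upper rows, and nicotinic genes, in green, make up 8 of the 20 lower calls of day 16 over day 8 in Msx1+ cells.

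From day 8 to day 16, 8 nicotinic and 7 GABA-A genes fell in Msx1+ cells. Of 18 glutamate genes 4 rose and 2 fell. Day-16 over day-8 Msx1+ cells gave 10 genes higher and 20 lower of 61, against 21.1% higher and 24.8% lower of all genes (45.9% in all), so the 4 glutamate genes that rose are near the share of all genes. The median was -0.27, against -0.03 over all genes, and -0.18 without day-8 Msx1+ replicate 2. With a filter of 1 CPM, 13 of 40 were lower. Nicotinic genes counted 1 higher and 8 lower of 14, and GABA-A genes 2 higher and 7 lower of 16. In Msx1- cells 13 were higher and 5 lower, against 19.7% and 17.8% of all genes (37.6% in all), and the median was 0.18, against 0.01. Without day-8 Msx1- replicate 2 the higher genes numbered 8. The median was 0.04 without day-16 Msx1- replicate 2 and 0.39 without day-8 Msx1- replicate 1. With scaling by library size alone, day-16 over day-8 Msx1+ cells gave 10 higher and 25 lower, and 3717 and 6999 of all genes in place of 4713 and 5526. In Msx1- cells it gave 15 higher and 4 lower, and 5061 and 2984 of all genes in place of 4399 and 3974. Leaving out 1 library ended 7 of the 30 calls in Msx1+ cells: those of Gabrr2, Htr5b and Htr7 without day-16 Msx1+ replicate 1; those of Gabrp, Grin2a and Chrng without day-16 Msx1+ replicate 2; those of Gabrp, Gabrr2 and Chrng without day-8 Msx1+ replicate 1; those of Grin2a, Chrna2, Htr5b and Htr7 without day-8 Msx1+ replicate 2. In Msx1- cells it ended 8 of 18, among them those of Gabra4, Gabrp, Htr1b and Htr2a without day-16 Msx1- replicate 1; those of Gabrg3, Gabrp, Htr1b, Htr1d and Htr2a without day-16 Msx1- replicate 2; those of Gabra4, Gabrp, Htr1b and Htr2a without day-8 Msx1- replicate 1; those of Gabrp, Htr1b and Htr2a without day-8 Msx1- replicate 2.

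The sorting effect itself was tested for a difference between the days. The day-16 effect minus the day-8 effect was called positive for 3 of 61 genes and negative for 20, against 10.3% and 18.3% of all genes tested (28.6% in all). The median difference was -0.55, against -0.10 over all genes. It was -0.86 without day-8 Msx1+ replicate 1, day-8 Msx1- replicate 2 or day-16 Msx1+ replicate 1, -0.91 without day-16 Msx1- replicate 1, -0.93 with no filter or with halved counts and -0.97 in the fit with ES libraries. With scaling by library size alone the counts were 1 and 24, and 1088 and 5912 of all genes in place of 2294 and 4090. Gabra3 and Grik5 were among those with a positive difference, and the call of Grik5 was lost with scaling by library size (0.24, adjusted p = 0.150) and without 4 single libraries in turn (0.30 to 0.41, adjusted p = 0.0630 to 0.0887). The 20 with a negative difference included 7 nicotinic and 7 GABA-A genes.

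**Figure D3:**
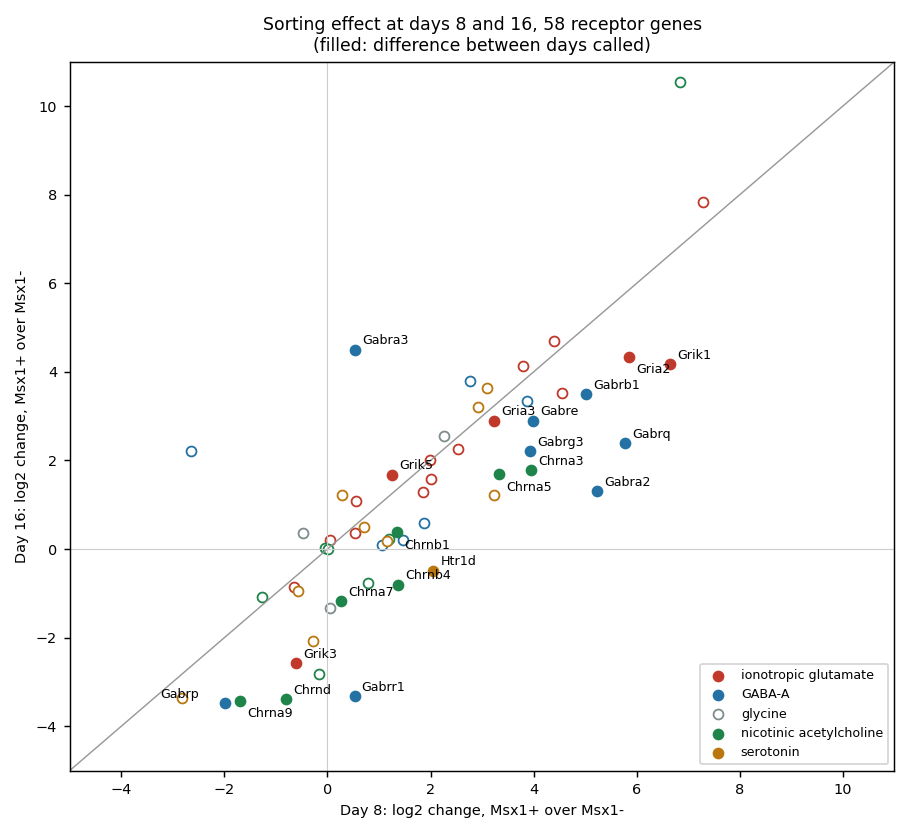
Each point is 1 of 58 receptor genes, with its log2 change of Msx1+ over Msx1- cells at day 8 on the x axis and at day 16 on the y axis; the diagonal marks equal effects, colours mark classes, and filled points are the 21 of them whose effects were called different between the days. Most filled points lie below the diagonal, and Gabra3 lies far above it. Chrna6, at 0 counts in Msx1- cells, is drawn at its fitted value.

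Against the ES libraries, day-8 Msx1+ cells had 40 genes higher and 5 lower of 60 tested, where 34.6% and 26.9% of 22504 genes were called (61.5% in all). Day-16 Msx1+ cells had 35 higher and 11 lower, where 37.3% and 33.7% were called (71% in all). Day-8 Msx1- cells had 17 higher and 4 lower, where 19% and 14.5% were called (33.6% in all). Day-16 Msx1- cells had 21 higher and 7 lower, where 28.5% and 24.5% were called (53% in all). Medians were 2.53 and 2.17 for day-8 and day-16 Msx1+ cells and 0.57 and 0.72 for day-8 and day-16 Msx1- cells, against 0.11, 0.07, 0.03 and 0.06 over all genes in the same order. Genes such as Grik1, Gabrq and Chrna6, at 0 counts in the ES libraries, passed the filter only through sorted cells. They had to come out higher where they are present, so neither the counts nor the medians are support by themselves. The 4 comparisons share the 2 ES libraries. Without day-8 Msx1- replicate 1 the count for day-8 Msx1- cells was 13 in place of 21, with 10 higher. Without day-16 Msx1- replicate 1, 4 genes were lower in day-16 Msx1- cells, and without ES replicate 1 their median was 1.10. With a filter of 1 CPM, 6 genes were lower in day-16 Msx1+ cells. In all, 18 of the 72 genes were called in none of the 10 comparisons, 10 of them because they passed no filter. The 8 tested but never called are Grin1, Grin2b, Glra1, Glra4, Chrna10, Chrne, Htr2b and Htr4.

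Among AMPA receptor subunits, which carry fast excitation, Gria3 was the most abundant and rose in each induced or sorted comparison. Gria3 had 23.4 and 21.6 CPM in Dlx2 EBs against 4.63 and 3.84 CPM in GFP EBs. It had 74.4 and 76.4 CPM in day-8 Msx1+ cells against 8.72 and 7.37 CPM in day-8 Msx1- cells, and 127 and 122 CPM in day-16 Msx1+ cells against 16.5 and 16.8 CPM in day-16 Msx1- cells. No Msx1- library reached any Msx1+ library of its day, and the ES libraries were lowest with 2.04 and 1.86 CPM. The log2 change was 2.41 ± 0.12 at day 2 (adjusted p = 9.33e-14), 3.22 ± 0.081 at day 8 and 2.90 ± 0.077 at day 16. Both fractions gained Gria3 with time, by 0.72 ± 0.069 in Msx1+ cells and 1.05 ± 0.083 in Msx1- cells.

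Gria1 and Gria2, the subunits that form the common AMPA channel of forebrain neurons, were near 0 or low at day 2 and appeared in Msx1+ cells. Gria1 had 3.1 and 2.88 CPM in day-8 Msx1+ cells against 0 and 0.037 CPM in day-8 Msx1- cells, and 19.1 and 19.4 CPM in day-16 Msx1+ cells against 0 and 0.164 CPM in day-16 Msx1- cells. Its day-8 ratio rests on 2 counts in the Msx1- libraries and was 172-fold, with a 95% counting interval of 47.3 to 1421. At day 2 Gria1 had 0.385 and 0.434 CPM in Dlx2 EBs against 0 and 0.0404 CPM in GFP EBs, a ratio of 20.1 with an interval of 3.36 to 818 because the GFP libraries held 1 count. Gria2, the subunit that makes AMPA channels impermeable to calcium once its transcript is edited, had 5.45 and 4.79 CPM in day-8 Msx1+ cells against 0.0648 and 0.111 CPM in day-8 Msx1- cells, and 18.3 and 15.3 CPM in day-16 Msx1+ cells against 1.03 and 0.622 CPM in day-16 Msx1- cells. Both Msx1+ libraries lay far above both Msx1- libraries at each day, with log2 changes of 5.85 ± 0.32 at day 8 and 4.34 ± 0.22 at day 16. Gria2 had 0.136 and 0.289 CPM in Dlx2 EBs against 0.162 and 0.404 CPM in GFP EBs, groups that overlap, and 0 and 0.118 CPM in the ES libraries, while Gria1 had 0.0386 and 0 CPM in the ES libraries. Gria1 rose by 2.69 ± 0.28 and Gria2 by 1.72 ± 0.18 between the days in Msx1+ cells (adjusted p = 6.96e-06 and 2.28e-06), and Gria2 also rose in Msx1- cells, by 3.23 ± 0.40. The rise of Gria1 was not called by DESeq2 (log2 change 2.72, adjusted p = 0.106). Gria4 went the other way at day 2, with 1.02 and 0.694 CPM in Dlx2 EBs against 1.99 and 2.18 CPM in GFP EBs, a log2 change of -1.26 ± 0.32. It had 1.7 and 1.74 CPM in day-8 Msx1+ cells against 1.05 and 1.27 CPM in day-8 Msx1- cells (not called), 1.8 and 2.45 CPM in day-16 Msx1+ cells against 1.01 and 0.981 CPM in day-16 Msx1- cells (log2 change 1.09 ± 0.27), and 0.81 and 0.471 CPM in the ES libraries.

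Kainate receptor subunits, glutamate-gated channels that often act before the synapse, differed among themselves in the size and direction of change. Grik1 had 1.93 and 1.56 CPM in Dlx2 EBs against 0.0406 and 0.0404 CPM in GFP EBs, where the GFP libraries held 2 counts, a 43.6-fold ratio with an interval of 11.9 to 364. It had 11.2 and 13.5 CPM in day-8 Msx1+ cells against 0.13 and 0.111 CPM in day-8 Msx1- cells, and 10.3 and 9.54 CPM in day-16 Msx1+ cells against 0.605 and 0.491 CPM in day-16 Msx1- cells. The log2 changes were 6.65 ± 0.24 and 4.17 ± 0.19, and the day-16 effect minus the day-8 effect was -2.48 ± 0.37 (adjusted p = 0.000136). Both ES libraries held 0 counts of Grik1, so the level was at least 432-fold higher in day-8 Msx1+ cells and at least 340-fold higher in day-16 Msx1+ cells, computed against 3 counts over the group.

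Grik4, a high-affinity kainate subunit that needs a partner to form channels, had 9.64 and 8.91 CPM in Dlx2 EBs against 0.649 and 0.929 CPM in GFP EBs, a log2 change of 3.55 ± 0.21. It had 7.55 and 8.14 CPM in day-8 Msx1+ cells against 1.07 and 1.66 CPM in day-8 Msx1- cells, and 8.54 and 7.9 CPM in day-16 Msx1+ cells against 1.57 and 1.86 CPM in day-16 Msx1- cells. It stood at 1.5 and 1 CPM in the ES libraries. The separation held in every library at each stage, with log2 changes of 2.53 ± 0.20 at day 8 and 2.25 ± 0.20 at day 16, and no change with time was called in either fraction. Its counterpart Grik5, the other high-affinity subunit, was present in every library and had 23.1 and 21.5 CPM in Dlx2 EBs against 24.5 and 25.4 CPM in GFP EBs, and was not called. Msx1+ cells then stood apart: Grik5 had 61.1 and 72.9 CPM in day-8 Msx1+ cells against 28.7 and 27.4 CPM in day-8 Msx1- cells, and 99.7 and 93.9 CPM in day-16 Msx1+ cells against 28.2 and 32.3 CPM in day-16 Msx1- cells, against 16.9 and 17.2 CPM in the ES libraries. Its log2 changes were 1.25 ± 0.089 at day 8 and 1.68 ± 0.09 at day 16, and it rose by 0.53 ± 0.086 between the days in Msx1+ cells.

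Grik2 had 1.45 and 1.45 CPM in Dlx2 EBs against 0.609 and 0.889 CPM in GFP EBs. In sorted cells Grik2 had 3.38 and 3.13 CPM in day-8 Msx1+ cells against 0.211 and 0.259 CPM in day-8 Msx1- cells, and 4.68 and 3.2 CPM in day-16 Msx1+ cells against 0.294 and 0.147 CPM in day-16 Msx1- cells. It stood at 0.116 and 0.0392 CPM in the ES libraries. The sorted fractions did not overlap, at log2 changes of 3.79 ± 0.34 and 4.14 ± 0.34, while the day-2 change of 0.95 ± 0.35 was lost without Dlx2 EB replicate 1, Dlx2 EB replicate 2 or GFP EB replicate 1 (log2 change 0.69 to 0.95, adjusted p = 0.107 to 0.145) and in DESeq2 (adjusted p = 0.116). Grik3 is the exception of the group. It rose with Dlx2, with 40.3 and 35 CPM in Dlx2 EBs against 13.7 and 12.6 CPM in GFP EBs (log2 change 1.52 ± 0.093), and fell in Msx1+ cells, with 16.2 and 17.1 CPM in day-8 Msx1+ cells against 24.2 and 26.8 CPM in day-8 Msx1- cells, and 2.69 and 2.9 CPM in day-16 Msx1+ cells against 16.8 and 16.5 CPM in day-16 Msx1- cells. The ES libraries had 35.9 and 33.8 CPM, close to the Dlx2 EBs. Grik3 changed by -0.61 ± 0.094 at day 8 and -2.58 ± 0.11 at day 16 (adjusted p = 4.01e-11), and within Msx1+ cells the change between the days was -2.58 ± 0.11.

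Grid1 encodes a delta subunit, which binds cerebellins at synapses rather than glutamate. It had 1.72 and 2.07 CPM in day-8 Msx1+ cells against 0.421 and 0.517 CPM in day-8 Msx1- cells, and 2.14 and 2.7 CPM in day-16 Msx1+ cells against 0.785 and 0.818 CPM in day-16 Msx1- cells, log2 changes of 2.01 ± 0.30 and 1.59 ± 0.28. Grid1 was not called at day 2, with 1.43 and 1.53 CPM in Dlx2 EBs against 1.22 and 0.808 CPM in GFP EBs, and had 0.733 and 0.157 CPM in the ES libraries.

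NMDA receptors need the subunit encoded by Grin1 together with Grin2 or Grin3 subunits. Grin1 stayed low in every library, between 0.162 and 0.940 CPM, and was not called in any of the 10 comparisons. It had 0.635 and 0.665 CPM in Dlx2 EBs against 0.162 and 0.485 CPM in GFP EBs. In sorted cells Grin1 had 0.475 and 0.515 CPM in day-8 Msx1+ cells against 0.94 and 0.61 CPM in day-8 Msx1- cells, and 0.518 and 0.39 CPM in day-16 Msx1+ cells against 0.802 and 0.834 CPM in day-16 Msx1- cells. It stood at 0.424 and 0.784 CPM in the ES libraries. Its exons overlap those of the antisense gene Grin1os over 1307 bp, and the library kit does not mark strand, so reads of the pair cannot be told apart. Grin2b, the main Grin2 gene of the developing brain, was also low throughout, at 0.0784 to 0.812 CPM, and not called.

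The other Grin genes did not stay low. Grin3a, whose product lowers the calcium flow of NMDA receptors, had 10.6 and 10.1 CPM in Dlx2 EBs against 0.203 and 0.444 CPM in GFP EBs, a log2 change of 4.98 ± 0.26 (adjusted p = 8.44e-14). It had 14.3 and 14.8 CPM in day-8 Msx1+ cells against 0.875 and 0.333 CPM in day-8 Msx1- cells, and 12 and 12.4 CPM in day-16 Msx1+ cells against 1.23 and 0.883 CPM in day-16 Msx1- cells. It stood at 0.289 and 0.118 CPM in the ES libraries. All Dlx2 and Msx1+ libraries lay above 10 CPM and all other libraries below 1.3 CPM, with log2 changes of 4.55 ± 0.27 at day 8 and 3.53 ± 0.25 at day 16. Grin2a, the Grin2 gene of mature synapses, had 7.8 and 9.32 CPM in day-8 Msx1+ cells against 0.421 and 0.388 CPM in day-8 Msx1- cells, and 6.77 and 5.21 CPM in day-16 Msx1+ cells against 0.229 and 0.229 CPM in day-16 Msx1- cells. At day 2 Grin2a had 0.862 and 0.694 CPM in Dlx2 EBs against 0.162 and 0.202 CPM in GFP EBs, and it stood at 0.154 and 0.0196 CPM in the ES libraries. It changed by 4.39 ± 0.24 and 4.69 ± 0.26 in Msx1+ cells, and its day-2 change of 2.08 ± 0.55 was lost without Dlx2 EB replicate 1 (log2 change 1.91, adjusted p = 0.0947). Grin2d, a subunit of embryonic brain and interneurons, had 7.16 and 7.87 CPM in Dlx2 EBs against 2.39 and 3.47 CPM in GFP EBs. In sorted cells Grin2d had 9.02 and 10.5 CPM in day-8 Msx1+ cells against 2.5 and 2.42 CPM in day-8 Msx1- cells, and 9.71 and 10.7 CPM in day-16 Msx1+ cells against 3.03 and 2.03 CPM in day-16 Msx1- cells. It stood at 1.45 and 1.47 CPM in the ES libraries. These are log2 changes of 1.35 ± 0.18, 1.99 ± 0.18 and 2.01 ± 0.18. Grin2d exons overlap the antisense gene Gm45441 over 643 bp. Grin2c had 1.73 and 1.74 CPM in day-8 Msx1+ cells against 0.551 and 0.407 CPM in day-8 Msx1- cells, and 1.86 and 1.17 CPM in day-16 Msx1+ cells against 0.262 and 0.965 CPM in day-16 Msx1- cells, and its day-16 call was lost without day-16 Msx1+ replicate 1 or day-16 Msx1- replicate 1 (log2 change 0.63 to 0.93, adjusted p = 0.177 to 0.215). Grin3b stayed below 1 CPM in every library and shares 1059 bp of exon with Tmem259 on the other strand.

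**Figure D4:**
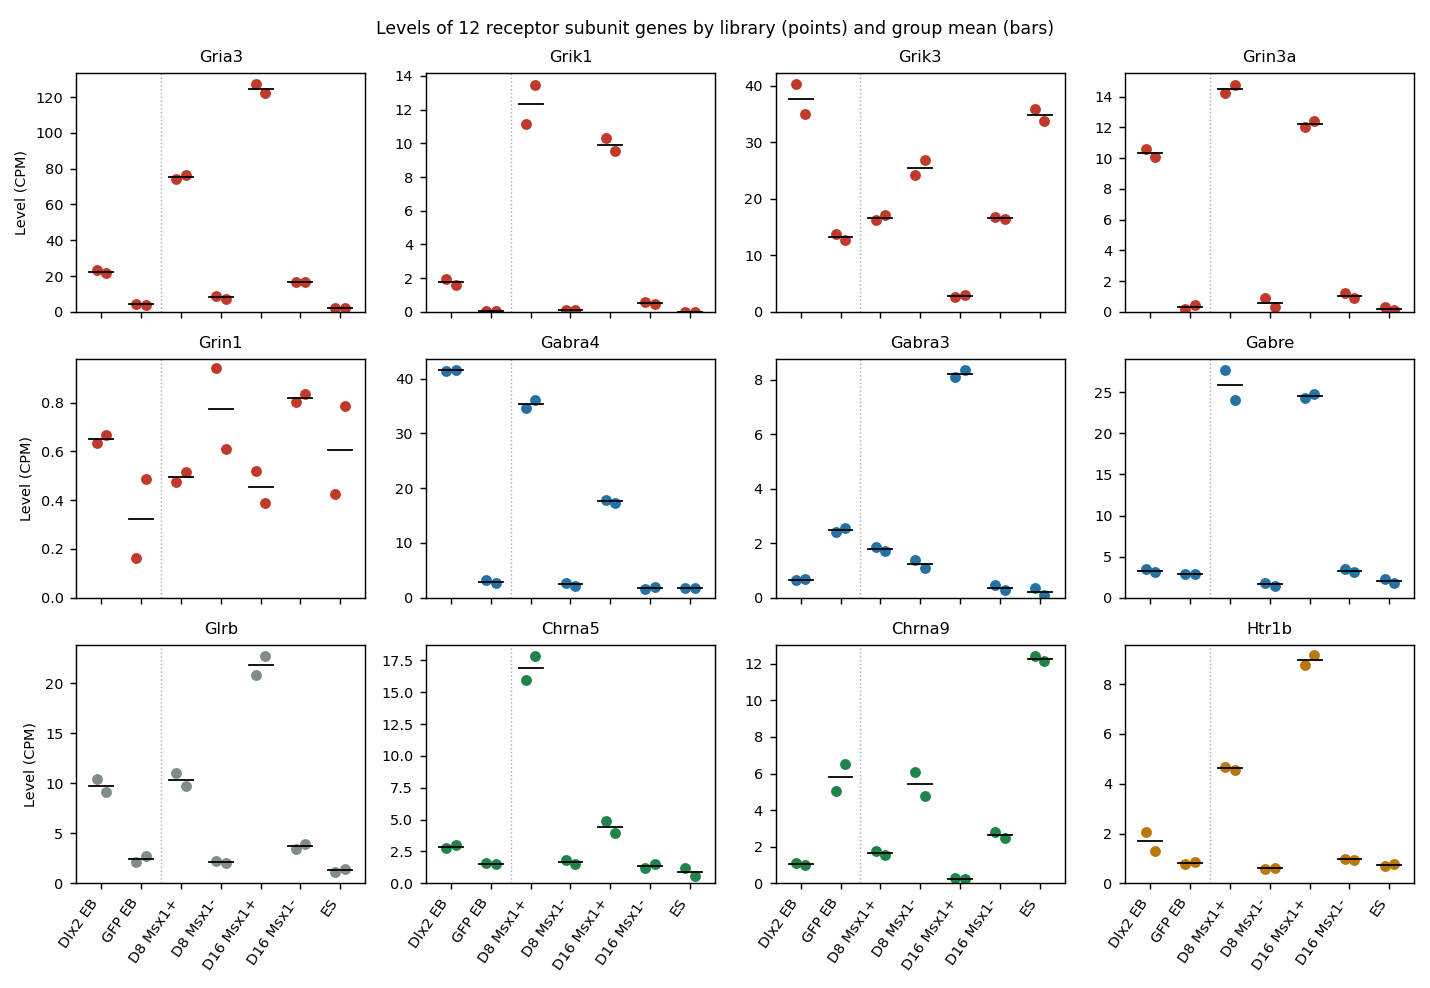
Points are the 2 libraries of each group and bars their mean, in CPM on a linear axis from 0, for 12 receptor genes coloured by class, and the dotted line parts the separately normalised tables. Gria3, Grik1, Grin3a, Gabra4 and Glrb are high in the Dlx2 EBs or Msx1+ cells, Grik3 and Chrna9 are highest in the ES libraries or Dlx2 EBs, and Grin1 stays below 1 CPM throughout.

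GABA-A receptors are chloride channels of 5 subunits, usually of alpha, beta and other types, and their genes lie in clusters. The cluster on chromosome 5 holds Gabrg1, Gabra2, Gabra4 and Gabrb1 between 70751047 and 72149037 (GRCm38), and 3 of its genes rose with Dlx2 while Gabrg1 fell. The promoters of these neighbours, from 250 bases before to 50 after the RefSeq start (GRCm38.p6), are shown because the same locus holds genes that moved in opposite directions; capitals mark CG dinucleotides.
Gabrg1 promoter (chr5:70842568-70842867, minus strand): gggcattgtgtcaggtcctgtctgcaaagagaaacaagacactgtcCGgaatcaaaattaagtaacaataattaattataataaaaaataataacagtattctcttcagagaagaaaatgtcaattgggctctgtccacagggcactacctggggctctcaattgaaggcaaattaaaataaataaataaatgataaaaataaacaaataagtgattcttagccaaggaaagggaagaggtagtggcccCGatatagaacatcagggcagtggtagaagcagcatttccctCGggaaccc
Gabra2 promoter (chr5:71095800-71096099, minus strand): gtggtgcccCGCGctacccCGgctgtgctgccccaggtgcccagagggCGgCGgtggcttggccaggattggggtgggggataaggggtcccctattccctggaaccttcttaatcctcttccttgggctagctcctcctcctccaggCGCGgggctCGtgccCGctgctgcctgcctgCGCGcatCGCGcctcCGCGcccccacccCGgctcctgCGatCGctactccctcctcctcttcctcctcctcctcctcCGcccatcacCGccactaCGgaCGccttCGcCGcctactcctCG
Gabra4 promoter (chr5:71658259-71658558, minus strand): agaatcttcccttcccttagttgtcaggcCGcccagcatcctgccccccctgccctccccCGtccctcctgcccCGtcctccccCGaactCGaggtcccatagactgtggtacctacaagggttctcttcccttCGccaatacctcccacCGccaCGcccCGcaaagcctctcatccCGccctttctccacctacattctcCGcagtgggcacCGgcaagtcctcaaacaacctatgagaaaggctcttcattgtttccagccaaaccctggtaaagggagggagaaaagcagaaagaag
Gabrb1 promoter (chr5:71657671-71657970, plus strand): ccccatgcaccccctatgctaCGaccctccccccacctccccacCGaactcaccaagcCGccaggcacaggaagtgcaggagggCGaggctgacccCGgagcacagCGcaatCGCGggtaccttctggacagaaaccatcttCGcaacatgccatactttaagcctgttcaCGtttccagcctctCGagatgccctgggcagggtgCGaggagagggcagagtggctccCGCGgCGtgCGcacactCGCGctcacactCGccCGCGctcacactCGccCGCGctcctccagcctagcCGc
The window of Gabrg1 holds 3 CG dinucleotides, against 25 in Gabra2, 12 in Gabra4 and 25 in Gabrb1. Gabra4 and Gabrb1 face each other, with starts 388 bp apart such that their first exons overlap, by 46 bp in GENCODE vM21, and reads there cannot be assigned. The letters TAATTA, a core bound by homeodomain proteins such as DLX2 and its own reverse complement, occur in the Gabrg1 window first from base 69. A further copy overlaps the end of that one, and none of the other 3 windows holds these letters. Over 52 receptor genes with 59 RefSeq promoters, TAATTA occurs in 3 promoters (Gabrg1, Chrnb1 and Htr2a), or 5.08%, and in 5.29% of 32851 promoters of all genes. The median ratio of observed to expected CG was 0.586 in 41 promoters of receptor genes expressed in some group, 0.19997 in 18 promoters of those expressed in none, and 0.384 in all promoters.

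Gabra4, an alpha subunit of extrasynaptic receptors, had 41.4 and 41.6 CPM in Dlx2 EBs against 3.17 and 2.59 CPM in GFP EBs. It had 34.6 and 36.1 CPM in day-8 Msx1+ cells against 2.72 and 2.11 CPM in day-8 Msx1- cells, and 17.8 and 17.4 CPM in day-16 Msx1+ cells against 1.49 and 1.95 CPM in day-16 Msx1- cells. It stood at 1.68 and 1.67 CPM in the ES libraries. Dlx2 EBs and Msx1+ cells stood at 17 CPM or more and the other libraries below 3.2 CPM. The log2 changes were 3.85 ± 0.11 at day 2 (adjusted p = 3.67e-18), 3.86 ± 0.14 at day 8 and 3.35 ± 0.14 at day 16, and Msx1+ cells lost Gabra4 between the days by a log2 change of -1.01 ± 0.11. Its neighbour Gabrb1, a beta subunit, had 2.18 and 2.37 CPM in Dlx2 EBs against 0.487 and 0.444 CPM in GFP EBs. In sorted cells Gabrb1 had 5.35 and 5.91 CPM in day-8 Msx1+ cells against 0.227 and 0.111 CPM in day-8 Msx1- cells, and 4.25 and 3.57 CPM in day-16 Msx1+ cells against 0.327 and 0.36 CPM in day-16 Msx1- cells. It stood at 0.347 and 0.274 CPM in the ES libraries. The changes were 2.28 ± 0.35, 5.02 ± 0.31 and 3.50 ± 0.28, with no overlap of libraries. Gabra2, the other alpha gene of the locus to rise, had 2.3 and 2.36 CPM in day-8 Msx1+ cells against 0.0648 and 0.0554 CPM in day-8 Msx1- cells, a log2 change of 5.23 ± 0.50. At day 16 it had 0.227 and 0.468 CPM in day-16 Msx1+ cells against 0.164 and 0.115 CPM in day-16 Msx1- cells, a change of -2.74 ± 0.38 from day 8 within Msx1+ cells. Its day-16 call, at 1.31 ± 0.48, was lost without day-16 Msx1+ replicate 2, day-16 Msx1- replicate 1 or day-16 Msx1- replicate 2 (log2 change 0.70 to 1.57, adjusted p = 0.0543 to 0.308), in DESeq2 (adjusted p = 0.0530) and with halved counts (adjusted p = 0.0581). At day 2 it had 0.816 and 0.347 CPM in Dlx2 EBs against 0.0812 and 0.0404 CPM in GFP EBs, a ratio of 10.05 with an interval of 3.24 to 50.4 because the GFP libraries held 3 counts, and it had 0.0386 and 0.0392 CPM in the ES libraries. Gabrg1 had 0.068 and 0 CPM in Dlx2 EBs against 1.06 and 0.808 CPM in GFP EBs, where 3 counts in the Dlx2 EBs made it 24.4-fold lower (interval 7.85 to 123), and stayed below 0.2 CPM in every library of the later table.

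On the X chromosome Gabre, Gabra3 and Gabrq lie side by side and each took its own course. Gabre, the epsilon subunit, had 27.8 and 24 CPM in day-8 Msx1+ cells against 1.78 and 1.44 CPM in day-8 Msx1- cells, and 24.3 and 24.8 CPM in day-16 Msx1+ cells against 3.45 and 3.11 CPM in day-16 Msx1- cells, log2 changes of 3.996 ± 0.14 and 2.90 ± 0.12. At day 2 it had 3.42 and 3.1 CPM in Dlx2 EBs against 2.92 and 2.91 CPM in GFP EBs and was not called, and it had 2.26 and 1.74 CPM in the ES libraries. Gabra3 fell with Dlx2, at 0.635 and 0.665 CPM in Dlx2 EBs against 2.39 and 2.55 CPM in GFP EBs (log2 change -1.92 ± 0.31). At day 8 the fractions lay close, with 1.84 and 1.72 CPM in day-8 Msx1+ cells against 1.36 and 1.07 CPM in day-8 Msx1- cells (not called), and at day 16 they were far apart, with 8.09 and 8.34 CPM in day-16 Msx1+ cells against 0.458 and 0.262 CPM in day-16 Msx1- cells, a change of 4.50 ± 0.27. The difference between the days was 3.96 ± 0.36 (adjusted p = 1.45e-06), made by a rise of 2.21 ± 0.22 in Msx1+ cells and a change of -1.76 ± 0.29 in Msx1- cells; the ES libraries had 0.366 and 0.0784 CPM. Gabrq, the theta subunit, had 1.77 and 1.27 CPM in Dlx2 EBs against 0.244 and 0.202 CPM in GFP EBs, 2.82 and 3.03 CPM in day-8 Msx1+ cells against 0.0648 and 0.037 CPM in day-8 Msx1- cells, and 0.972 and 0.421 CPM in day-16 Msx1+ cells against 0.131 and 0.131 CPM in day-16 Msx1- cells. Both ES libraries had 0 counts of Gabrq, which puts day-8 Msx1+ cells at least 101-fold higher. Its log2 changes of 2.76 ± 0.46 at day 2 and 5.77 ± 0.52 at day 8 compare with 2.39 ± 0.48 at day 16, a difference between the days of -3.38 ± 0.79.

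Gabrg3 and Gabra5 are neighbours on chromosome 7. Gabrg3, a gamma subunit, had 5.69 and 6.13 CPM in Dlx2 EBs against 3.9 and 3.55 CPM in GFP EBs. In sorted cells Gabrg3 had 14.5 and 15.5 CPM in day-8 Msx1+ cells against 0.972 and 0.998 CPM in day-8 Msx1- cells, and 2.79 and 2.23 CPM in day-16 Msx1+ cells against 0.573 and 0.507 CPM in day-16 Msx1- cells. It stood at 1.08 and 1.2 CPM in the ES libraries. Day-8 Msx1+ cells stood highest, with a log2 change of 3.93 ± 0.19, against 0.66 ± 0.17 at day 2 and 2.21 ± 0.21 at day 16, and the change within Msx1+ cells between the days was -2.58 ± 0.17. Gabra5 was called at day 2, with 2.24 and 1.74 CPM in Dlx2 EBs against 0.406 and 0.646 CPM in GFP EBs (log2 change 1.92 ± 0.36), and not between the sorted fractions, with 0.782 and 0.68 CPM in day-8 Msx1+ cells against 0.292 and 0.407 CPM in day-8 Msx1- cells, and 0.178 and 0.468 CPM in day-16 Msx1+ cells against 0.311 and 0.294 CPM in day-16 Msx1- cells. It stood at 0.251 and 0.274 CPM in the ES libraries.

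Gabrb2, a beta subunit gene on chromosome 11, was lower with Dlx2 at day 2 and higher in Msx1+ cells. It had 1.86 and 2.2 CPM in day-8 Msx1+ cells against 0.486 and 0.0924 CPM in day-8 Msx1- cells, and 3.69 and 3.38 CPM in day-16 Msx1+ cells against 0.278 and 0.229 CPM in day-16 Msx1- cells. At day 2 Gabrb2 had 0.249 and 0.174 CPM in Dlx2 EBs against 0.731 and 0.848 CPM in GFP EBs, and it stood at 0.116 and 0.137 CPM in the ES libraries. No library outside the Msx1+ cells reached them, with log2 changes of 2.76 ± 0.44 at day 8 and 3.79 ± 0.45 at day 16. The day-2 log2 change was -1.86 ± 0.52, a call lost without Dlx2 EB replicate 2 (log2 change -1.64, adjusted p = 0.0922).

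**Figure D5:**
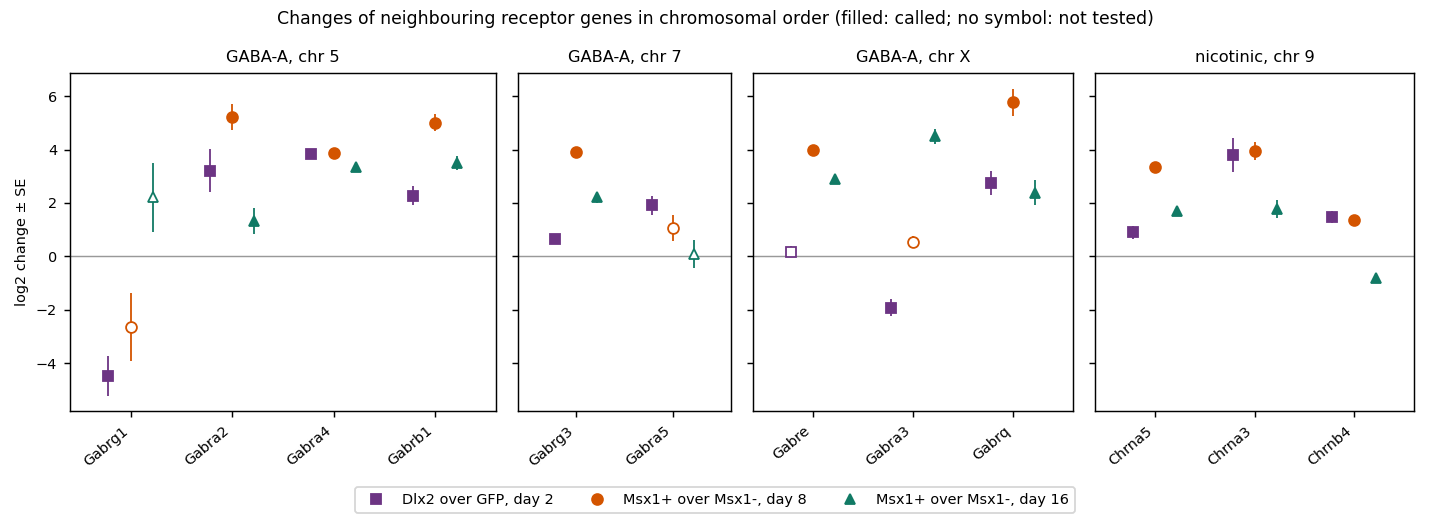
Log2 changes with their standard errors for genes of 4 clusters in chromosomal order, at day 2 (squares), day 8 (circles) and day 16 (triangles), filled where called. Within a cluster the genes split: Gabrg1 lies below 0 at day 2 beside 3 genes above 0, Gabra3 lies below 0 at day 2 and far above it at day 16, and Chrnb4 crosses 0 between day 8 and day 16.

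Gabrp, the pi subunit of epithelia and uterus, was lower in Dlx2 EBs and Msx1+ cells. It had 0.521 and 0.434 CPM in Dlx2 EBs against 1.95 and 2.14 CPM in GFP EBs. In sorted cells Gabrp had 1.23 and 0.89 CPM in day-8 Msx1+ cells against 4.44 and 3.86 CPM in day-8 Msx1- cells, and 0.664 and 0.468 CPM in day-16 Msx1+ cells against 6.68 and 5.94 CPM in day-16 Msx1- cells. It stood at 4.19 and 4.47 CPM in the ES libraries. No library of the lower group reached the higher one, at log2 changes of -2.08 ± 0.35, -1.99 ± 0.23 and -3.48 ± 0.26. The sum of 6 epithelial markers was also lower in day-16 Msx1+ cells, at 861 and 895 CPM against 1623 and 1655 CPM in day-16 Msx1- cells, and nearly equal at day 8, with 808 and 827 CPM in Msx1+ cells against 844 and 855 CPM in Msx1- cells; its part in the Gabrp result was not tested. The rho subunits Gabrr1 and Gabrr2, known from retina, peaked at 1.42 and 0.665 CPM in single libraries, and Gabrr1 was lower in day-16 Msx1+ cells by a log2 change of -3.32 ± 0.61.

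Glycine receptors were represented by their beta subunit alone. Glrb, which anchors the receptor to gephyrin, had 10.4 and 9.08 CPM in Dlx2 EBs against 2.15 and 2.75 CPM in GFP EBs. It had 11 and 9.71 CPM in day-8 Msx1+ cells against 2.22 and 2.07 CPM in day-8 Msx1- cells, and 20.8 and 22.7 CPM in day-16 Msx1+ cells against 3.45 and 3.91 CPM in day-16 Msx1- cells. It stood at 1.16 and 1.41 CPM in the ES libraries. Every Dlx2 or Msx1+ library stood at 9 CPM or more and no other library above 4 CPM, with log2 changes of 2.00 ± 0.17, 2.26 ± 0.14 and 2.56 ± 0.13 (adjusted p = 2.78e-10 at day 16). The gene rose with time in both fractions, by 1.08 ± 0.12 in Msx1+ and 0.78 ± 0.14 in Msx1- cells. The channel-forming alpha genes Glra1, Glra2, Glra3 and Glra4 stayed at or below 0.491 CPM in every library. Glra1 and Glra4 were called in none of the comparisons that tested them, and Glra2 and Glra3 passed no filter.

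Nicotinic genes of the ganglionic type, which form the receptor of autonomic neurons, lie together on chromosome 9 and peaked in day-8 Msx1+ cells. Chrna5 had 15.9 and 17.9 CPM in day-8 Msx1+ cells against 1.8 and 1.53 CPM in day-8 Msx1- cells, and 4.93 and 3.96 CPM in day-16 Msx1+ cells against 1.24 and 1.5 CPM in day-16 Msx1- cells. At day 2 Chrna5 had 2.74 and 3.01 CPM in Dlx2 EBs against 1.58 and 1.49 CPM in GFP EBs, and it stood at 1.2 and 0.549 CPM in the ES libraries. Chrna3 had 5.21 and 5.62 CPM in day-8 Msx1+ cells against 0.227 and 0.48 CPM in day-8 Msx1- cells, and 1.23 and 1.08 CPM in day-16 Msx1+ cells against 0.262 and 0.409 CPM in day-16 Msx1- cells. At day 2 Chrna3 had 1.47 and 0.839 CPM in Dlx2 EBs against 0.0406 and 0.121 CPM in GFP EBs, and it stood at 0.309 and 0.0392 CPM in the ES libraries. For both, Msx1+ libraries lay above Msx1- libraries on each day, by log2 changes of 3.34 ± 0.18 and 3.95 ± 0.33 at day 8 and of 1.69 ± 0.18 and 1.77 ± 0.34 at day 16. Chrnb4, the beta partner, had 12.7 and 13.1 CPM in day-8 Msx1+ cells against 5.2 and 4.82 CPM in day-8 Msx1- cells, 5.08 and 4.72 CPM in Dlx2 EBs against 2.23 and 1.33 CPM in GFP EBs, and 2.35 and 2.51 CPM in the ES libraries. At day 16 the order was turned round, with 2.12 and 2.37 CPM in day-16 Msx1+ cells against 4.38 and 3.45 CPM in day-16 Msx1- cells, a log2 change of -0.80 ± 0.17, against 1.36 ± 0.15 at day 8 and 1.46 ± 0.23 at day 2. Within Msx1+ cells Chrna5 changed by -1.93 ± 0.16, Chrna3 by -2.23 ± 0.28 and Chrnb4 by -2.52 ± 0.16 from day 8 to day 16.

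Chrna6, an alpha subunit of dopamine neurons and retina in the mouse brain, was seen in Msx1+ cells alone among the later libraries. It had 2.85 and 2.62 CPM in day-16 Msx1+ cells against 0 and 0 CPM in day-16 Msx1- cells, and 0.223 and 0.192 CPM in day-8 Msx1+ cells against 0 and 0 CPM in day-8 Msx1- cells, with 0 counts in the ES libraries. Against 3 counts over the group, Chrna6 was at least 111-fold higher at day 16 and at least 7.88-fold higher at day 8, and it rose by 3.72 ± 0.40 between the days in Msx1+ cells. Its neighbour Chrnb3 reached 0.281 CPM at most.

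Chrna9, known from cochlear hair cells and skin, was lower with Dlx2 and in Msx1+ cells. It had 1.09 and 1.01 CPM in Dlx2 EBs against 5.03 and 6.54 CPM in GFP EBs. In sorted cells Chrna9 had 1.76 and 1.57 CPM in day-8 Msx1+ cells against 6.06 and 4.75 CPM in day-8 Msx1- cells, and 0.275 and 0.218 CPM in day-16 Msx1+ cells against 2.83 and 2.5 CPM in day-16 Msx1- cells. It stood at 12.4 and 12.1 CPM in the ES libraries. The ES libraries were highest and day-16 Msx1+ cells lowest, and the log2 changes were -2.45 ± 0.23, -1.70 ± 0.22 and -3.43 ± 0.28. Chrna7, the subunit that forms receptors by itself, had 17.1 and 18.3 CPM in Dlx2 EBs against 10.4 and 8.48 CPM in GFP EBs (log2 change 0.90 ± 0.12). It was not called at day 8, with 8.04 and 8.79 CPM in day-8 Msx1+ cells against 6.98 and 7.08 CPM in day-8 Msx1- cells, and lower in Msx1+ cells at day 16, with 2.88 and 2.07 CPM in day-16 Msx1+ cells against 4.55 and 6.66 CPM in day-16 Msx1- cells (log2 change -1.18 ± 0.20), and the ES libraries had 5.02 and 4.74 CPM. Chrna10 stayed at or below 0.231 CPM, and its exons overlap those of Art1. Chrna4 and Chrnb2, which form the main nicotinic receptor of the brain, reached 1 CPM in most groups. Chrna4 had 2.51 and 3.24 CPM in day-8 Msx1+ cells against 1.36 and 1.15 CPM in day-8 Msx1- cells (log2 change 1.20 ± 0.26), and 2.69 and 3.74 CPM in day-16 Msx1+ cells against 2.36 and 3.11 CPM in day-16 Msx1- cells. At day 2 Chrna4 had 2.54 and 1.79 CPM in Dlx2 EBs against 2.15 and 1.01 CPM in GFP EBs, and it stood at 0.887 and 0.98 CPM in the ES libraries. Chrnb2 lay between 2.34 and 4.32 CPM in every library, and its day-2 change of -0.47 ± 0.20 was lost without Dlx2 EB replicate 1, Dlx2 EB replicate 2 or GFP EB replicate 2 (log2 change -0.40 to -0.52, adjusted p = 0.115 to 0.219), with scaling by library size (adjusted p = 0.194), with no filter (adjusted p = 0.0521) and in DESeq2 (adjusted p = 0.160). Exons of Chrnb2 overlap those of Adar over 1365 bp.

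The muscle receptor is made of Chrna1, Chrnb1, Chrnd and Chrng or Chrne, and of these Chrnb1 was the one expressed in every group. Chrnb1 had 14.1 and 15.2 CPM in Dlx2 EBs against 12.6 and 11.3 CPM in GFP EBs. In sorted cells Chrnb1 had 10.6 and 10.6 CPM in day-8 Msx1+ cells against 4.25 and 4.05 CPM in day-8 Msx1- cells, and 8.91 and 8.43 CPM in day-16 Msx1+ cells against 6.56 and 6.77 CPM in day-16 Msx1- cells. It stood at 2.8 and 2.73 CPM in the ES libraries. Its Msx1+ libraries lay above its Msx1- libraries at both days, by 1.35 ± 0.13 at day 8 and by 0.38 ± 0.12 at day 16, where the call was lost without day-16 Msx1+ replicate 1 or day-16 Msx1- replicate 1 (log2 change 0.34, adjusted p = 0.0805 to 0.0941). The day-2 change of 0.29 ± 0.11 was lost without Dlx2 EB replicate 2 or GFP EB replicate 2 (log2 change 0.20 to 0.24, adjusted p = 0.144 to 0.177) and in DESeq2 (adjusted p = 0.102). Chrna1 reached 1 CPM in Dlx2 EBs and ES libraries: it had 1.11 and 1.07 CPM in Dlx2 EBs against 0.162 and 0.566 CPM in GFP EBs with a log2 change of 1.57 ± 0.48, and 0.279 and 0.506 CPM in day-8 Msx1+ cells against 0.437 and 0.388 CPM in day-8 Msx1- cells, and 0.34 and 0.312 CPM in day-16 Msx1+ cells against 0.229 and 0.409 CPM in day-16 Msx1- cells. It stood at 1.16 and 0.941 CPM in the ES libraries. The day-2 call of Chrna1 was lost without Dlx2 EB replicate 1, Dlx2 EB replicate 2 or GFP EB replicate 1 (log2 change 0.93 to 1.60, adjusted p = 0.0519 to 0.102). Chrnd, Chrne and Chrng stayed at or below 0.654 CPM in every library, and Chrnd was lower in day-16 Msx1+ cells by a log2 change of -3.39 ± 0.68. The sum of 10 skeletal muscle markers was 18.0 and 17.6 CPM in day-16 Msx1+ cells, against 36.8 and 36.7 CPM in day-16 Msx1- cells. Of the 10 markers, 5 were expressed in day-16 Msx1+ cells and 6 in day-16 Msx1- cells. Between these groups 8 were tested, with 1 higher and 4 lower in Msx1+ cells, against 31.1% higher and 31% lower of all genes tested. Among the 10, Myod1, Myf5 and Myf6 lay below 0.5 CPM in every library. The part of muscle cells was not tested.

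Among serotonin receptors, Htr1b and Htr2a were highest in day-16 Msx1+ cells and Htr1d in Dlx2 EBs. Htr1b, an inhibitory receptor on nerve endings, had 4.68 and 4.56 CPM in day-8 Msx1+ cells against 0.583 and 0.628 CPM in day-8 Msx1- cells, and 8.75 and 9.15 CPM in day-16 Msx1+ cells against 0.998 and 0.932 CPM in day-16 Msx1- cells. At day 2 Htr1b had 2.06 and 1.3 CPM in Dlx2 EBs against 0.771 and 0.848 CPM in GFP EBs, and it stood at 0.694 and 0.765 CPM in the ES libraries. Msx1+ cells were highest at each day, by log2 changes of 2.93 ± 0.20 and 3.21 ± 0.19, and the day-2 change of 1.07 ± 0.35 was lost without Dlx2 EB replicate 1 (log2 change 0.68, adjusted p = 0.273) and in DESeq2 (adjusted p = 0.0668). Htr1b exons overlap the antisense gene D430036J16Rik over 852 bp. Htr1d, its close relative, stood highest in Dlx2 EBs, with 8.14 and 9.52 CPM in Dlx2 EBs against 1.83 and 1.09 CPM in GFP EBs (log2 change 2.59 ± 0.21, adjusted p = 2.3e-10). It had 2.86 and 3.47 CPM in day-8 Msx1+ cells against 0.859 and 0.665 CPM in day-8 Msx1- cells (log2 change 2.05 ± 0.32), and 1.41 and 1.4 CPM in day-16 Msx1+ cells against 1.33 and 2.62 CPM in day-16 Msx1- cells. It stood at 0 and 0.157 CPM in the ES libraries. The day-16 groups overlapped, and the difference between the days was -2.54 ± 0.44. Htr2a, the excitatory receptor of cortex and smooth muscle, had 3.18 and 3.35 CPM in day-16 Msx1+ cells against 0.229 and 0.294 CPM in day-16 Msx1- cells, 0.991 and 0.82 CPM in day-8 Msx1+ cells against 0.0972 and 0.111 CPM in day-8 Msx1- cells, 0.907 and 0.926 CPM in Dlx2 EBs against 0.0406 and 0.0808 CPM in GFP EBs, and 0 and 0.0784 CPM in the ES libraries. It was highest in day-16 Msx1+ cells, with log2 changes of 3.63 ± 0.33 at day 16 and 3.10 ± 0.39 at day 8, and the day-2 ratio was 15.1, with an interval of 4.95 to 74.8 because the GFP libraries held 3 counts.

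Htr7, a receptor that raises cyclic AMP, had 0.81 and 1.94 CPM in day-8 Msx1+ cells against 0.162 and 0.129 CPM in day-8 Msx1- cells, and 0.373 and 0.592 CPM in day-16 Msx1+ cells against 0.245 and 0.164 CPM in day-16 Msx1- cells. At day 2 Htr7 had 1.27 and 0.868 CPM in Dlx2 EBs against 0.487 and 0.121 CPM in GFP EBs, and it stood at 0 and 0.0392 CPM in the ES libraries. The fractions were apart at day 8 (log2 change 3.23 ± 0.54) and not called at day 16, and the day-2 change of 1.81 ± 0.52 was lost without Dlx2 EB replicate 1 or GFP EB replicate 2 (log2 change 1.13 to 1.50, adjusted p = 0.0524 to 0.12). Htr6 had 1.27 and 1.07 CPM in Dlx2 EBs against 0.812 and 0.929 CPM in GFP EBs. In sorted cells Htr6 had 1.08 and 1.67 CPM in day-8 Msx1+ cells against 0.648 and 1.03 CPM in day-8 Msx1- cells, and 0.826 and 0.811 CPM in day-16 Msx1+ cells against 0.556 and 0.605 CPM in day-16 Msx1- cells. It stood at 1.37 and 1.24 CPM in the ES libraries. Its sole call, of day-16 Msx1- cells under the ES libraries, was lost without day-16 Msx1- replicate 1 or ES replicate 1 (log2 change -1.08 to -1.09, adjusted p = 0.0537 to 0.074). The channel gene Htr3a lay between 0.279 and 1.37 CPM in every library and its partner Htr3b at or below 0.157 CPM. Htr1a, Htr1f, Htr2b, Htr2c, Htr4, Htr5a and Htr5b stayed below 1 CPM in every library.

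Genes that serve these receptors were counted by list, to be read against all genes tested, of which 34.1% were higher and 33% lower in Dlx2 EBs, 30.4% and 24.3% in day-8 Msx1+ cells and 31.1% and 31% in day-16 Msx1+ cells, with medians of 0.02, 0.06 and -0.02. Of 24 glutamate receptor auxiliary and scaffold genes, 20 were tested, of which 10 were higher and 7 lower in Dlx2 EBs, 14 higher and 2 lower in day-8 Msx1+ cells, and 14 higher and 3 lower in day-16 Msx1+ cells. Their median log2 changes were 0.24, 1.07 and 0.78, and the 7 lower at day 2 are near the share of all genes. Dlg4, the scaffold PSD-95, had 84 and 83.9 CPM in day-16 Msx1+ cells against 11.3 and 10.4 CPM in day-16 Msx1- cells (log2 change 2.95 ± 0.079), and was lower in Dlx2 EBs by -0.97 ± 0.098. Homer2, a scaffold of metabotropic receptors, had 81.8 and 79.6 CPM in Dlx2 EBs against 15.1 and 16.3 CPM in GFP EBs (log2 change 2.36 ± 0.076), and Grip1, which binds AMPA subunits, had 37.8 and 33.8 CPM in day-16 Msx1+ cells against 14.3 and 13.4 CPM in day-16 Msx1- cells (log2 change 1.37 ± 0.09). Dlg2 had 2.04 and 2.99 CPM in day-16 Msx1+ cells against 0.327 and 0.36 CPM in day-16 Msx1- cells (log2 change 2.86 ± 0.36). Of 8 genes of glutamate supply and uptake 6 were tested, with 3 higher and 3 lower in Dlx2 EBs, 2 higher and 4 lower in day-8 Msx1+ cells and the same counts at day 16, at medians of -0.06, -0.63 and -0.77. The vesicular transporter Slc17a7 had 1.04 and 0.359 CPM in day-16 Msx1+ cells against 3.39 and 2.91 CPM in day-16 Msx1- cells (log2 change -2.18 ± 0.35), the uptake gene Slc1a2 had 2.07 and 1.75 CPM in day-16 Msx1+ cells against 0.442 and 0.442 CPM in day-16 Msx1- cells (log2 change 2.105 ± 0.32), and the vesicular transporters Slc17a6 and Slc17a8 passed no filter.

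All 12 partners of GABA and glycine receptors were tested, with 5 higher and 1 lower in Dlx2 EBs, 7 higher and 3 lower in day-8 Msx1+ cells, and 4 higher and 3 lower in day-16 Msx1+ cells. Their medians were 0.34, 0.80 and 0.07, and at day 16 both counts are near the shares of all genes. The GABA-making enzyme Gad1 had 7.55 and 7.87 CPM in Dlx2 EBs against 0.284 and 0.606 CPM in GFP EBs, 14.2 and 14.7 CPM in day-8 Msx1+ cells against 1.26 and 1.33 CPM in day-8 Msx1- cells, and 1.78 and 2.25 CPM in day-16 Msx1+ cells against 2.06 and 1.75 CPM in day-16 Msx1- cells. Its log2 changes were 4.10 ± 0.26 at day 2 and 3.48 ± 0.18 at day 8, and it was not called at day 16, where the groups overlapped. Gad2 had 5.28 and 5.09 CPM in Dlx2 EBs against 0.244 and 0.162 CPM in GFP EBs (log2 change 4.65 ± 0.32), and the vesicular GABA transporter Slc32a1 had 7.1 and 7.9 CPM in Dlx2 EBs against 0.609 and 0.323 CPM in GFP EBs (log2 change 3.99 ± 0.26). Abat, which breaks GABA down, had 46 and 44 CPM in day-16 Msx1+ cells against 8.7 and 7.66 CPM in day-16 Msx1- cells (log2 change 2.46 ± 0.11).

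Of 12 acetylcholine partners 11 were tested at day 2, with 5 higher and 2 lower, and 10 were tested in the sorted cells, with 8 higher and none lower at day 8 and 5 higher and 2 lower at day 16. Their medians were 0.81 at day 2, 1.67 at day 8 and 1.29 at day 16, to be set against the same shares and medians of all genes. Slc5a7, the choline transporter of cholinergic neurons, had 29.5 and 28.5 CPM in day-16 Msx1+ cells against 2.88 and 3.16 CPM in day-16 Msx1- cells (log2 change 3.26 ± 0.13). Chat, which makes acetylcholine, had 1.43 and 1.48 CPM in Dlx2 EBs against 0.0406 and 0.0404 CPM in GFP EBs, 3.18 and 2.91 CPM in day-8 Msx1+ cells against 0.81 and 0.739 CPM in day-8 Msx1- cells (log2 change 1.97 ± 0.40), and 0.113 and 0 CPM in day-16 Msx1+ cells against 0.164 and 0.131 CPM in day-16 Msx1- cells (not called). Slc18a3 had 8.52 and 12 CPM in day-8 Msx1+ cells against 4.57 and 5.06 CPM in day-8 Msx1- cells (log2 change 1.09 ± 0.18), and the degrading enzyme Ache had 5.14 and 5.48 CPM in day-8 Msx1+ cells against 0.389 and 0.573 CPM in day-8 Msx1- cells (log2 change 3.47 ± 0.24). Of 9 serotonin partners, 8 were tested at day 2 with 5 higher and 2 lower, and 9 in the sorted cells with 5 higher and 1 lower at day 8 and 5 higher and none lower at day 16, at medians of 0.57, 1.41 and 0.55. The serotonin transporter Slc6a4 had 6.26 and 7.15 CPM in day-8 Msx1+ cells against 0.583 and 0.166 CPM in day-8 Msx1- cells (log2 change 4.12 ± 0.36), and Tph2, which makes serotonin in the brain, had 6.42 and 6.51 CPM in Dlx2 EBs against 1.22 and 0.323 CPM in GFP EBs (log2 change 3.06 ± 0.29). Ddc had 6.3 and 6.33 CPM in day-8 Msx1+ cells against 16.5 and 21.2 CPM in day-8 Msx1- cells (log2 change -1.58 ± 0.13), and the vesicular transporter Slc18a2 had 6.83 and 7.07 CPM in day-8 Msx1+ cells against 2.24 and 2.07 CPM in day-8 Msx1- cells (log2 change 1.69 ± 0.16).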

How the data were processed

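RNA-seq gene counts of 14 libraries in 7 groups were used, from a table of day 2 and a table of days 8 and 16 and ES cells. The authors deposited them as raw counts per gene symbol, one column per library. Per the submitters' processing notes, fastp 0.20.0, HISAT2 2.1.0 and DESeq2 1.18.1 were used with build GRCm38; the counting tool is not given in the sources used here. Per the labels' protocols, the library kit was NEBNext Ultra, which does not mark strand. The day-2 columns name the line and replicate but not doxycycline. They were read as the groups with doxycycline because the series design names day-2 EBs overexpressing Dlx2 or GFP. The 4 samples of 2 uninduced groups were not analysed here.

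Counts were scaled by TMM within each table and tested with edgeR 4.0.16 (quasi-likelihood test, robust, filterByExpr, R 4.3.3), in 3 fits: the 4 day-2 libraries (18650 genes), the 8 sorted libraries (22294 genes) and these with ES (22504 genes). Benjamini-Hochberg adjustment covered every gene of a fit, and an adjusted p below 0.05 is a call. Of genes changed by 1 and by 2 on the log2 scale in simulated counts, 83.7% and 99.0% were recovered for day 2, 78.4% and 93.7% for day-8 Msx1+ over Msx1- cells, and 75.5% and 95.8% for day-8 Msx1+ cells over ES. The simulated counts had the same dispersion for all genes and few changed genes, unlike these data, so these shares do not give the recovery of receptor genes. A standard error is the log2 change divided by the root of its F statistic. Folds over a group with 3 counts or fewer are ratios with an exact 95% interval, and over 0 counts a bound from 3 counts over the group; both cover counting error only, as PCR copies are not independent molecules. Genes named with values were called with a log2 change of at least 1 in size and at least 1 CPM in a group, at most 25 per comparison; others named were chosen after their values were seen. Values of 4 receptor genes are not reported here, while counts and sums over all receptor genes include them. Members, lists and rules were chosen with earlier results of these data known. Exon lengths and positions are from GENCODE vM21 and promoters from RefSeq, both GRCm38. Alternatives were other scalings and filters, DESeq2 1.42.0, a replicate block, each library left out, the sorted cells fitted with ES, and counts of the later table halved.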

Additional observations from a re-analysis of the deposited data

Results flagged for a closer look

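The difference between Msx1+ and Msx1- cells was not the same at both days for 23 receptor genes, by a test of the day-16 effect minus the day-8 effect in the edgeR quasi-likelihood fit (Benjamini-Hochberg adjusted p below 0.05). Among all genes tested 28.6% were called. Values are differences of log2 changes.

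GABA-A genes gave -3.92 for Gabra2, 3.96 for Gabra3, -1.52 for Gabrb1, -1.10 for Gabre, -1.72 for Gabrg3, -1.49 for Gabrp, -3.38 for Gabrq and -3.84 for Gabrr1. Gabra3 alone among these 8 had a positive difference above 1, and its level in Msx1+ cells rose between the days. Glutamate genes gave -1.51 for Gria2, -0.32 for Gria3, -2.48 for Grik1, -1.96 for Grik3 and 0.42 for Grik5. Nicotinic genes gave -2.18 for Chrna3, -1.65 for Chrna5, -1.44 for Chrna7, -1.72 for Chrna9, -0.97 for Chrnb1, -2.17 for Chrnb4 and -2.57 for Chrnd, and the serotonin gene Htr1d gave -2.54.

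Leaving out 1 library ended 7 of the 23 calls, among them those of Gria3 and Grik5 without day-16 Msx1+ replicate 1; those of Gria2, Gria3 and Chrnd without day-16 Msx1+ replicate 2; those of Gria2, Gria3 and Grik5 without day-16 Msx1- replicate 1; those of Gabrb1, Gria3 and Chrnd without day-16 Msx1- replicate 2; those of Grik5 and Chrnd without day-8 Msx1+ replicate 1; those of Gria3 and Chrnd without day-8 Msx1+ replicate 2; those of Gria2, Grik5 and Chrnd without day-8 Msx1- replicate 1; those of Gabrb1, Gria3 and Chrnd without day-8 Msx1- replicate 2. Without a library these differences ran from -1.10 to -1.45 for Gabrb1, -1.09 to -1.39 for Gria2, -0.19 to -0.35 for Gria3, 0.30 to 0.41 for Grik5 and -2.12 to -2.73 for Chrnd where the call was lost. Other settings ended the calls of Gria3 under RLE scaling (adjusted p = 0.0754) and DESeq2 (adjusted p = 0.0921), and of Chrnd under DESeq2 (adjusted p = 0.0620) and a replicate block (adjusted p = 0.0578). They also ended those of Gria2 with halved counts (adjusted p = 0.0590) and in the fit with ES libraries (adjusted p = 0.0721), and of Grik5 with scaling by library size (adjusted p = 0.150).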

How the results depend on the processing

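No call on a receptor gene changed direction in the alternatives run, which were recorded for called genes alone. Of the calls on single receptor genes, DESeq2 kept 308 and lost 17, RLE scaling kept 323 and lost 2, library-size scaling kept 319 and lost 6, no filter on low counts kept 320 and lost 5, a filter of 1 CPM kept 275 and lost 1, and the 10-library fit of the sorted cells kept 144 and lost 4. Halving the counts of the later table, chosen after seeing the data, kept 277 and lost 8. Over fits without 1 library, 1233 calls were kept and 158 lost. The receptor genes called then ranged from 29 to 38 at day 2, where the full data gave 37, from 36 to 39 in day-8 cells (37), from 35 to 38 in day-16 cells (40), from 26 to 28 between days in Msx1+ cells (30), from 13 to 15 in Msx1- cells (18) and from 20 to 23 for the difference of effects (23). Against ES they ranged from 42 to 44 for day-8 Msx1+ cells (45), from 13 to 18 for day-8 Msx1- cells (21), from 45 to 47 for day-16 Msx1+ cells (46) and from 24 to 31 for day-16 Msx1- cells (28). Of these totals, the count of 13 without day-8 Msx1- replicate 1 is the one over 1.5 times from its full value. By direction, higher genes between days in Msx1- cells fell to 8 (13) without day-8 Msx1- replicate 2, higher genes in day-8 Msx1- cells against ES to 10 (17) without day-8 Msx1- replicate 1, and lower genes in day-16 Msx1- cells against ES to 4 (7) without day-16 Msx1- replicate 1. The causes were not tested. A filter of 1 CPM, which tested 40 receptor genes, left 6 lower in day-16 cells (11), 13 lower between days in Msx1+ cells (20) and 6 lower in day-16 Msx1+ cells against ES (11). Where a group was left with 1 library, that library was assumed to vary like the others.

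The labels give every group replicates 1 and 2, and do not say whether the numbers pair the libraries. Deviations of same-numbered libraries correlated between -0.041 and 0.103 across genes. With 1 difference per group this cannot exclude that libraries of a number share a culture or sort. With the replicate number as a block, 38 receptor genes were called at day 2, 37 at day 8 and 39 at day 16, which lost 4 and kept 321 single calls over the 10 comparisons. DESeq2 called 31, 37 and 38. Scaling by library size moved the median log2 change of all genes to 0.20 at day 2, where TMM gave 0.02, to 0.22 at day 8 (0.06), to -0.15 between days in Msx1+ cells (-0.03), to -0.28 for the difference of effects (-0.10), and against ES to 0.30 for day-8 Msx1+ cells (0.11) and 0.17 for day-16 Msx1- cells (0.06).

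Depth limits the genes near 0: a count of 0 allows 0.0680 to 0.122 CPM in a day-2 library and 0.0262 to 0.0588 CPM in a later one, for counting error only. The excess of even counts in the later table makes its counting intervals too narrow.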

Other observations

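The scaffold list holds genes that the 2 tables record differently. Cacng7, an AMPA receptor auxiliary subunit, had 35.1 and 36.6 CPM in Dlx2 EBs against 70.2 and 72.8 CPM in GFP EBs, and 0 to 2 counts in each of the 10 libraries of the later table. Cacng8, its relative, had 3.4 and 3.67 CPM in Dlx2 EBs against 11.1 and 10.7 CPM in GFP EBs, and 0 counts in all 10 later libraries. The same holds for Rapsn, which gathers muscle acetylcholine receptors, with 0.499 and 0.376 CPM in Dlx2 EBs against 0.568 and 0.646 CPM in GFP EBs, and 0 counts in the later table. Both Cacng genes were higher in GFP EBs than in Dlx2 EBs. Whether these genes were absent or were counted in another way there was not tested.

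Ectomesenchyme markers, 8 genes, summed to 544 and 537 CPM in Dlx2 EBs against 9.66 and 11.1 CPM in GFP EBs, to 603 and 656 CPM in day-8 Msx1+ cells against 38.0 and 36.6 CPM in day-8 Msx1- cells, and to 1233 and 1242 CPM in day-16 Msx1+ cells against 171 and 183 CPM in day-16 Msx1- cells. The 8 include Msx1, whose reporter set the sort, so part of the difference between fractions was fixed by the sort. Msx1 itself had 73.7 and 81.6 CPM in day-16 Msx1+ cells. Neural progenitor markers, 8 genes, summed to 191 and 168 CPM in day-16 Msx1+ cells against 61.2 and 65.5 CPM in day-16 Msx1- cells, but went both ways, with 4 called higher and 3 lower. Of all genes tested between these groups, 31.1% were higher and 31% lower, so the 3 lower are near the share of all genes. Peripheral glia and melanocyte markers, 7 genes, summed to 12.3 and 10.7 CPM in day-16 Msx1+ cells against 18.0 and 19.6 CPM in day-16 Msx1- cells, with none called higher and 2 lower. The 2 lower are likewise near the share of all genes.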
